A study of Sorghum bicolor with 12 samples.

Results

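The comparison described here is the drought response of leaves of Jinliang 5 (JL), 1 of the 2 sorghum (Sorghum bicolor) cultivars in the study. Its members are the 6 JL libraries of 12 in all, 3 from plants with a normal water supply and 3 from plants under drought. The other 6 libraries are leaves of the cultivar Sanchisan (SCS), again 3 control and 3 drought, and they enter the same fit and serve for comparison. The labels give no transgene, and the length and severity of the drought and the age of the plants were not given in the sources used here. Of the 33897 genes in the deposited count table, 20873 passed the filter on low counts and were tested.

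A leaf that loses water makes abscisic acid (ABA), a hormone whose production is limited by 9-cis-epoxycarotenoid dioxygenases. ABA binds receptors of the PYL family, which then hold back clade A protein phosphatases 2C and release SnRK2 kinases, called SAPK in cereals. The kinases act on bZIP and other factors that switch on stomatal closure and protective proteins and sugars, among them late embryogenesis abundant (LEA) proteins, dehydrins and raffinose. The phosphatases themselves are also transcribed in response to ABA, a feedback that makes them common markers of the response. Sorghum fixes carbon by the C4 route, with a first fixation in mesophyll cells and the Calvin cycle in bundle sheath cells.

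The JL libraries held 15.04 to 16.03 M counts, and their 100 most abundant genes took 31.1% to 40.6% of them. Since no label ties the 3 libraries to separate plants, p-values here rest on a spread between samples that may be technical. Among leaf markers, the 8 mesophyll genes summed to 91321 to 134015 CPM (counts scaled by TMM to a common library size) in the 6 libraries, and the 10 bundle sheath genes to 18560 to 30190 CPM. Root markers summed to between 0.540 and 1.5 CPM, with 3 of 4 at 0 in every JL library. Of 19 pollen and anther markers, 13 had no count in any JL library, and their sum of 46.2 to 77.2 CPM came mostly from the gene DEFECTIVE IN EXINE FORMATION 1. The 19 markers of dividing tissue summed to 96.8 to 128 CPM. In such bulk leaf RNA, fewer cells of a type and less RNA per cell cannot be told apart.

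The first question was which genes differed between drought and control in JL leaves. By edgeR's quasi-likelihood test with Benjamini-Hochberg adjustment, none of the 20873 genes was called (0%), and every adjusted p was 1. At an unadjusted p below 0.05 stood 579 genes with a higher level in drought (2.77%) and 196 with a lower level (0.939%), so that 74.7% of them were on the higher side. That share was 64.3% with upper-quartile scaling and 47.5% in the limma fit of FPKM. Higher and lower together made up 3.71% of the tested genes. This is under the share that an unadjusted threshold of 0.05 lets pass with no change. The 3 drought libraries lay entirely above the 3 controls for 548 genes (2.63%) and entirely below them for 535 (2.56%), or for 366 and 759 with upper-quartile scaling. With 3 libraries a group, such gaps also arise without any change, so these numbers alone do not show a response. The standard error (SE) of the log2 fold change had a median of 0.53 and quartiles of 0.35 and 0.93. All SE here are approximate, since each was derived as the absolute log2 fold change over the square root of the test's F statistic. Both counts at the unadjusted threshold were larger without JL drought 3 (1416 higher and 622 lower). The higher count was smaller without JL control 2 (260, with 214 lower) and without JL drought 2 (364, with 174 lower), and the lower count was larger without JL drought 1 (393, with 704 higher). The adjusted test called 1 gene without JL control 1, a cyclic nucleotide-gated ion channel 4 (LOC8067475, log2 fold change 2.76), and 2 uncharacterised genes without JL drought 1, both lower.

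DESeq2 called 44 genes at an adjusted p below 0.05 (0.217% of the 20238 genes that it gave one), 37 higher and 7 lower. Of these, 22 had counts in a single JL library, 18 of them in JL drought 2. Another 19 had counts in 4 or more JL libraries, 15 of them higher in drought. Of those 15, JL drought 3 did not exceed the highest control for 9. The SD of log2 CPM within a group had a median of 0.66 over genes in JL drought and 0.43 in JL control.

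**Figure D1:**
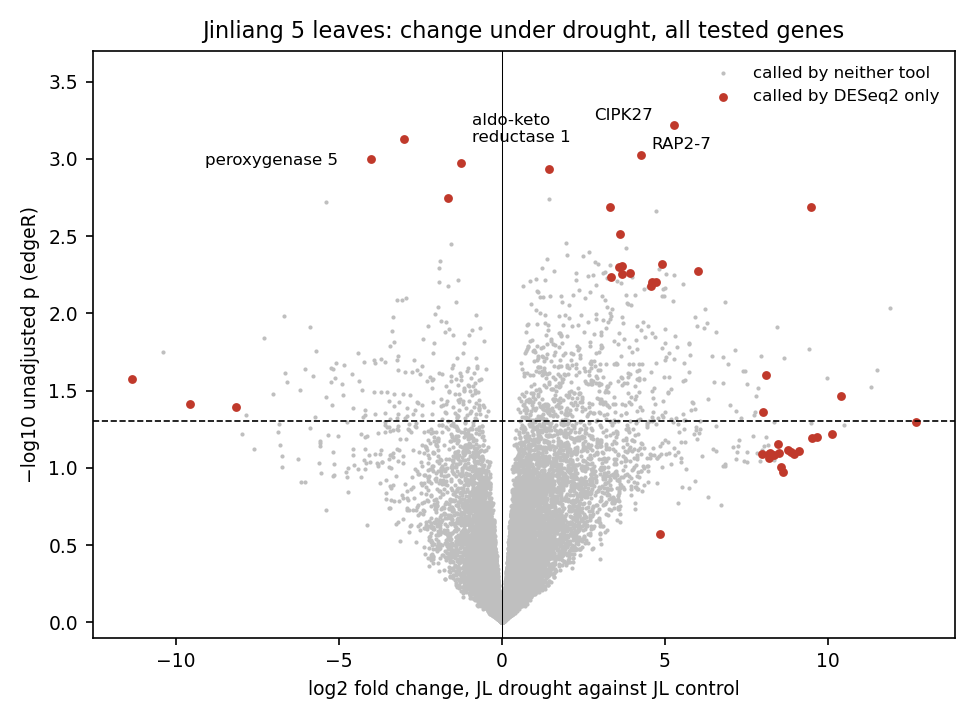
Each point is a tested gene, with the log2 fold change of JL drought against control on the x axis and −log10 of the unadjusted edgeR p-value on the y axis. The dashed line is the 0.05 threshold and red points are the 44 genes called by DESeq2; more points lie above the line on the right (579) than on the left (196), and none is called by edgeR.

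Of the genes whose drought libraries all lay above the controls, the smallest p belonged to a CBL-interacting protein kinase 27 (LOC8060255, chromosome 2, 59341864 to 59343879), of the family that couples calcium sensors to ion transport. Its level was 10.3, 3.34 and 1.82 CPM in the controls and 79.6, 482 and 34.3 CPM in drought. The lowest drought library stood above the highest control, and JL drought 2 was far above the rest. The log2 fold change was 5.27 (SE 1.09, unadjusted p = 0.00060), and DESeq2 called it (adjusted p = 2.5e-05).

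Cytochrome P450 709B2 (LOC8080771, chromosome 1, 64935507 to 64938144), annotated as a transcribed pseudogene, was another gene higher in every drought library. It had 13.9, 14.1 and 13.8 CPM in the controls and 35.6, 48.5 and 30.02 CPM in drought. All 3 controls were nearly equal, and each drought library stood above them, with a log2 fold change of 1.45 (SE 0.35, unadjusted p = 0.00182). In SCS the same gene rose by 1.45 (edgeR adjusted p = 0.0294).

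Transport and sugar handling contributed several of the 12 genes. Potassium transporter 24 (LOC8065785), a carrier of potassium ions, had 3.65, 2.92 and 0.945 CPM in the controls and 16.02, 22.7 and 3.95 CPM in drought, a log2 fold change of 2.505. SWEET6a (LOC8082221), a sugar carrier of the SWEET family, had 3.99, 3.84 and 5.67 CPM against 16.7, 30.6 and 13.7 CPM, a change of 2.17 (SE 0.66). A monosaccharide-sensing protein 2-like gene (LOC110434532), a vacuolar sugar carrier in Arabidopsis, had 34.5, 21.02 and 24.6 CPM against 38.8, 61.2 and 93.5 CPM, a change of 1.27. The order of the drought libraries differed between them: JL drought 2 was highest for the first pair and JL drought 3 for the last.

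Another 4 genes came from varied functions. A CCR4-associated factor 1 homolog 7 (LOC8060251, chromosome 2, 59215698 to 59216983), a deadenylase that shortens mRNA tails, had 29.8, 30.3 and 32.5 CPM in the controls and 55.9, 41.8 and 48.2 CPM in drought. DEAD-box RNA helicase 17 (LOC8077129) had 5.096, 4.92 and 5.67 CPM against 7.66, 11.2 and 13.3 CPM. A steroid 5-beta-reductase (LOC8063223) had 27.9, 33.1 and 42.2 CPM against 60.3, 84.7 and 72.3 CPM, and a low-specificity threonine aldolase 2 (LOC110436673), which splits threonine into glycine and acetaldehyde, 14.1, 21.9 and 19.4 CPM against 32.8, 79.4 and 43.05 CPM. Their log2 fold changes were 0.66, 1.04, 1.07 and 1.49. The last pair also rose in SCS, by 1.91 (adjusted p = 0.00882) and 2.06 (adjusted p = 0.0226) on the log2 scale in the edgeR fit.

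Patatin-like protein 7 (LOC8054325), a lipid acyl hydrolase, had 8.15, 4.84 and 4.99 CPM in the controls and 21.3, 16.4 and 9.37 CPM in drought. A chloroplastic carbonic anhydrase (LOC8058220) had 2.04, 0.667 and 1.55 CPM against 7.89, 62.7 and 2.196 CPM, and rop guanine nucleotide exchange factor 7 (LOC8058910), an activator of small GTPases, 0.849, 1.25 and 0.135 CPM against 2.501, 82.6 and 1.39 CPM. For the last pair nearly all of the difference lay in JL drought 2.

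Among genes lower in every drought library, a peroxygenase 5 (LOC8061513, chromosome 10, 9858333 to 9860264), of a family that oxidises unsaturated fatty acids, stood first. It had 37.1, 29.1 and 46.4 CPM in the controls and 2.97, 3.51 and 0.512 CPM in drought. The groups lay far apart, with a log2 fold change of -4.01 (SE 0.89, unadjusted p = 0.00099), and DESeq2 called it (adjusted p = 0.00029). The gene fell in SCS too, by 6.35 on the log2 scale (edgeR adjusted p = 0.00919).

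An aldo-keto reductase 1 (LOC8054390, chromosome 3, 55802618 to 55805114), of a family that reduces carbonyl compounds, had 69.6, 49.5 and 54.2 CPM in the controls and 27.04, 23.02 and 23.3 CPM in drought. Neither group varied much, and the log2 fold change was -1.24 (SE 0.28, unadjusted p = 0.00107; DESeq2 adjusted p = 0.0218). Its SCS estimate was -0.18, which did not pass the test.

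Sucrose synthase 4 (LOC8082319, chromosome 1, 66642749 to 66650461), which splits sucrose for metabolism, had 51.5, 37.6 and 58.6 CPM in the controls and 21.2, 16.8 and 11.9 CPM in drought. Its JL log2 fold change was -1.57 (SE 0.42, unadjusted p = 0.00357), while in SCS it rose by 2.46 (edgeR adjusted p = 0.00929). The difference between the cultivars' changes was -4.03 (SE 0.601) and passed its own test (edgeR adjusted p = 0.0298), which held in 3 of the 12 fits that left out 1 library.

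A ricin B-like lectin R40C1 (LOC8084563, chromosome 1, 67327300 to 67329184), a carbohydrate-binding protein known in rice as responsive to ABA, had 18.4, 29.5 and 30.2 CPM in the controls and 8.99, 2.23 and 10.2 CPM in drought. It was lower in all 3 JL drought libraries, with a log2 fold change of -1.86, and rose by 7.98 in SCS (edgeR adjusted p = 0.00205). The cultivars' changes differed by -9.84 (SE 0.97, edgeR adjusted p = 0.00602), the largest such difference among these 12 lower genes, and it was called whichever of the 12 libraries was left out.

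The other lower genes were of varied function. GTPase activating protein 1 (LOC8077459) had 43.8, 52.5 and 66.9 CPM in the controls and 22.3, 13.6 and 28.04 CPM in drought. The peptide and nitrate carrier family member NPF4.4 (LOC8075842) had 35.8, 72.4 and 18.96 CPM against 13.3, 6.503 and 13.6 CPM, and EGG APPARATUS-1 (LOC8081538), first known from maize pollen tube attraction, 120, 150 and 77.9 CPM against 66.7, 16.9 and 46.8 CPM. Their log2 fold changes were -1.35, -1.93 and -1.41, with JL drought 2 the lowest library each time.

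Dicer homolog 4 (LOC8064459), which cuts double-stranded RNA into small RNAs, had 55.9, 62.7 and 47.7 CPM in the controls and 36.03, 29.6 and 38.8 CPM in drought. The groups were close but did not overlap, at a log2 fold change of -0.67. Methylthioribose kinase 1-like (LOC110436221), of the cycle that recovers methionine after ethylene and polyamine synthesis, had 129, 286 and 201 CPM against 110, 85.9 and 113 CPM, a change of -0.999. The last 3 lower genes were SULFUR DEFICIENCY-INDUCED 1 (LOC8067482), mitochondrial amidoxime reducing component 2 (LOC8074209) and a gene annotated as probable mediator subunit 37c (LOC8072550). Their changes were -2.04, -0.803 and -1.496.

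In the ABA pathway, as elsewhere in JL, edgeR called no gene. Of 23 tested genes of ABA synthesis, receptors and kinases, 3 had an unadjusted p below 0.05 and a higher level (13.04%, beside 2.77% of all genes) and none a lower one. The median log2 fold change was 0.40 beside 0.04 over all tested genes, and 0.18 without JL drought 1, 0.20 without JL drought 2 and 0.25 without JL control 2. The hormone's rate-limiting enzyme, 9-cis-epoxycarotenoid dioxygenase 1 (LOC8062208, chromosome 1, 12560769 to 12563477), had 3.99, 2.92 and 10.3 CPM in the controls and 44, 217 and 3.08 CPM in drought. JL drought 2 was highest and JL drought 1 next, while JL drought 3 lay within the control range. The log2 fold change was 3.93 (SE 1.13, unadjusted p = 0.00548; DESeq2 adjusted p = 0.0359).

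The most abundant members of the list overlapped between the groups. Zeaxanthin epoxidase (LOC110436123), which makes a precursor of ABA, had 855, 901 and 553 CPM in the controls and 586, 597 and 679 CPM in drought. The receptor PYL8 (LOC8078346) had 156, 242 and 189 CPM against 109, 131 and 215 CPM. The kinase SAPK7 (LOC110436350) had 3.23, 1.92 and 4.45 CPM against 19.9, 88.3 and 3.15 CPM, a log2 fold change of 3.53 (SE 1.04, unadjusted p = 0.00617), in the same order of libraries as the dioxygenase.

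Of 69 tested protein phosphatases 2C, 8 had an unadjusted p below 0.05 with a higher level (11.6%, beside 2.77% of all genes) and none with a lower one, and the list's median was 0.17. Without JL drought 2 the 8 became 2, without JL drought 3 they became 14, and without JL control 2 or 1 they were 4 and 5. Protein phosphatase 2C 37 (LOC8083404) had 1.53, 0.167 and 0.405 CPM in the controls and 9.07, 46.4 and 0.293 CPM in drought, a log2 fold change of 4.73 (SE 1.39; DESeq2 adjusted p = 0.0351). Protein phosphatase 2C 49 (LOC110430337) had 0.934, 1.58 and 2.97 CPM against 16.3, 50.1 and 1.25 CPM, a change of 3.61 (SE 1.02; DESeq2 adjusted p = 0.0462), and rose by 7.35 in SCS (edgeR adjusted p = 0.00744). The most abundant members were not higher: protein phosphatase 2C 39 (LOC8075245) had 738, 942 and 901 CPM against 435, 340 and 949 CPM, and 2C 5 (LOC8075001) 540, 631 and 471 CPM against 390, 361 and 599 CPM.

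Among transcription factors of the response, 2 genes named bZIP23, an activator of ABA-responsive genes in rice, had the smallest p of the 8 tested ABA-responsive bZIP factors. The one on chromosome 10 (LOC8077354) had 11.6, 8.51 and 10.2 CPM in the controls and 28.8, 69.9 and 12.1 CPM in drought, a log2 fold change of 1.86 (SE 0.62, unadjusted p = 0.0119). The one on chromosome 4 (LOC8075201) had 38.2, 42.8 and 38.9 CPM against 114, 212 and 28.6 CPM, a change of 1.57 (SE 0.55), with JL drought 3 below every control. TRAB1 (LOC8063702), another ABA-related bZIP factor, overlapped between groups at 68.5, 82.5 and 78.3 CPM and 91.05, 53.3 and 107 CPM.

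HOX24 (LOC8075156), a homeodomain-leucine zipper factor, had 2.46, 3.42 and 16.5 CPM in the controls and 66.7, 225 and 2.56 CPM in drought, a log2 fold change of 3.71 (SE 1.22). JL drought 3 was again among the controls. In SCS it rose by 8.81 (edgeR adjusted p = 0.00929). Of 29 tested HD-Zip genes, 6 were on the higher side of the unadjusted threshold (20.7%, beside 2.77% of all genes) and 1 on the lower. The 6 became 1 without JL drought 2, 3 without JL drought 1 or JL control 1, and 4 without JL control 2 or 3.

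**Figure D2:**
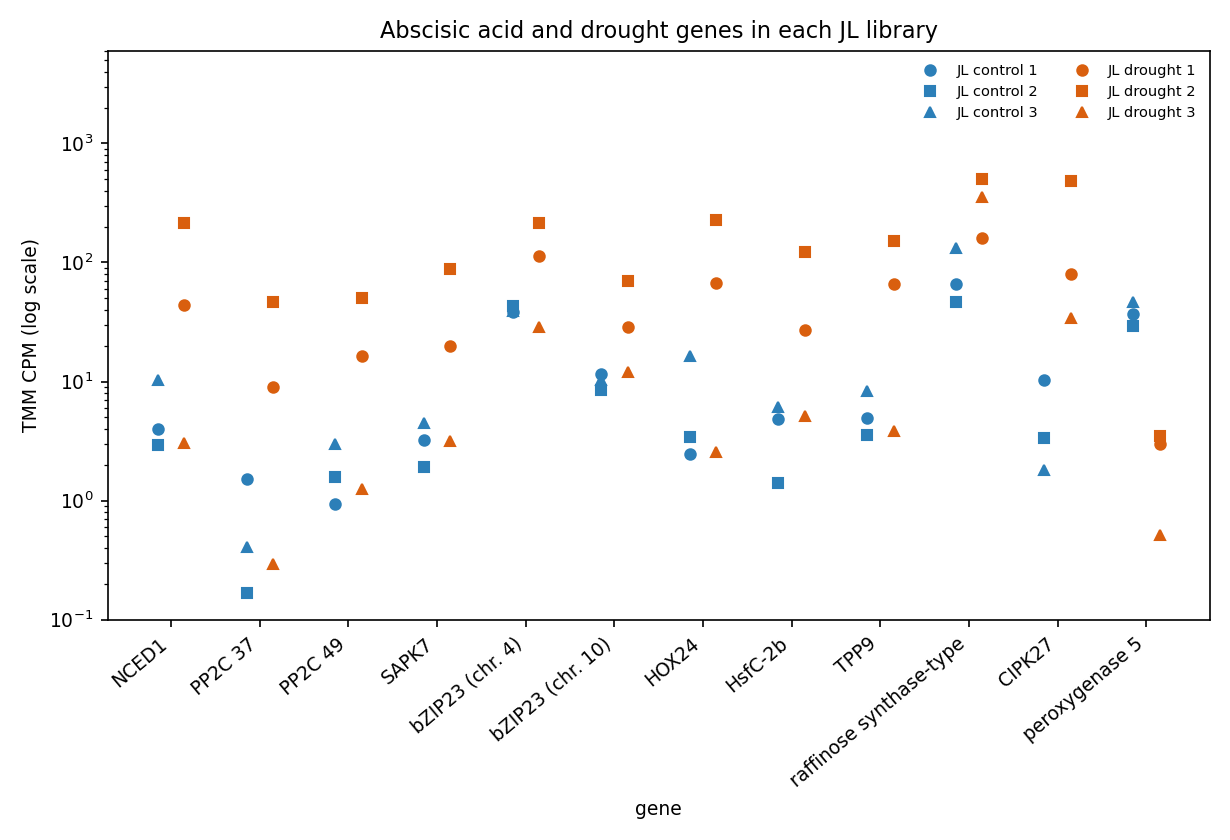
TMM CPM on a log axis for 12 genes described in the text, with JL control libraries in blue and JL drought libraries in orange and the marker shape giving the replicate number. For 9 of the first 10 genes JL drought 1 and 2 stand above all controls and JL drought 3 lies below both of them, as for NCED1 with 44, 217 and 3.08 CPM; for peroxygenase 5 all 3 drought libraries lie below the controls.

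LEA proteins and dehydrins, which protect membranes and proteins in drying tissue, had a median log2 fold change of 1.5 over 18 tested genes, the highest median of the 48 lists. The filter counted the SCS libraries too, and the list's SCS median was 9.56, so genes near 0 in JL could pass it through SCS drought. The list's median log2 ratio to the JL control mean was -0.07, 1.66 and -0.22 in JL drought 1, 2 and 3. Of the 18, 5 were higher (27.8%, beside 2.77% of all genes) and 1 lower (5.56%, beside 0.939%) at an unadjusted p below 0.05. Without JL drought 2 the median was 0 and 1 gene was higher, without JL drought 3 they were 2.07 and 8. The 5 became 2 without JL control 2 and 3 without JL control 1 or 3. LEA protein 31 (LOC8084494) was the only one with no overlap upward, at 1.36, 0.417 and 1.75 CPM in the controls and 12.3, 10.8 and 1.83 CPM in drought, a change of 2.803 (SE 0.81, unadjusted p = 0.00567). Dehydrin Rab25 (LOC8059149) had 0.255, 0 and 0 CPM against 0.625, 18.6 and 0 CPM, almost all in JL drought 2. A LEA protein named after At3g53040 (LOC8059039) had counts in JL drought 2 alone, at 30.6 CPM.

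The most abundant genes of the list overlapped between the groups. Dehydrin HIRD11 (LOC8057216) had 605, 385 and 686 CPM in the controls and 429, 718 and 632 CPM in drought. Lea5-D (LOC8060357) had 20.4, 47.6 and 330 CPM against 16.2, 26.1 and 211 CPM, with replicate 3 high in both groups. Dehydrin DHN1 (LOC8077913), named here for its known role and outside the naming rule, had 16.4, 2.17 and 1.21 CPM against 4.14, 203 and 1.098 CPM, while its mean in SCS drought was 5566 ± 3821 CPM (SD, n = 3).

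Raffinose and trehalose synthesis, which makes soluble sugars that guard drying cells, had 4 of 26 tested genes on the higher side of the unadjusted threshold (15.4%, beside 2.77% of all genes), none on the lower side, and a median of 0.46. A galactinol-sucrose galactosyltransferase (LOC8078430, chromosome 2, 7874433 to 7877967), the type of enzyme that makes raffinose, had 65.6, 46.6 and 133 CPM in the controls and 161, 502 and 355 CPM in drought. All 3 drought libraries exceeded the controls, with a log2 fold change of 2.06 (SE 0.64, unadjusted p = 0.00885), and the gene rose by 5.52 in SCS (edgeR adjusted p = 0.00426).

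Galactinol synthase 2 (LOC8081053), which supplies the donor for raffinose, had 266, 270 and 179 CPM in the controls and 347, 996 and 200 CPM in drought, a change of 1.11 (SE 0.53). Trehalose-phosphate phosphatase 9 (LOC8077127) had 4.93, 3.59 and 8.37 CPM against 66.3, 150 and 3.88 CPM, a change of 3.702 (SE 1.05; DESeq2 adjusted p = 0.0372). For both, JL drought 3 lay within the control range. Summed over the list, the controls held 1603, 1416 and 1853 CPM and the drought libraries 1805, 4058 and 1579 CPM, so that JL drought 2 alone stood apart. Without that library the list's median was 0.03 and 2 genes were higher, and the median was 0.27 without JL control 2 and 0.81 without JL control 3.

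Proline is another common osmotic protector. Of 9 tested genes of its metabolism and transport none was below an unadjusted p of 0.05 (0 higher and 0 lower), and the median was -0.08. P5C synthase 1 (LOC110430201), which makes the first committed step, had 14.6, 14.1 and 43.99 CPM in the controls and 8.91, 7.87 and 16.4 CPM in drought. It rose by 4.04 in SCS (edgeR adjusted p = 0.00817), and the JL change minus the SCS change was -5.17 (SE 0.91, edgeR adjusted p = 0.0413). Its copy P5C synthase 2 (LOC110433516) had 112, 97.01 and 298 CPM against 99.6, 27.3 and 198 CPM in JL. Ornithine aminotransferase (LOC8062211) of another route to proline, had 31.4, 25.8 and 46.5 CPM against 27.5, 41.6 and 29.1 CPM, and the cultivars' changes differed by -2.299 (edgeR adjusted p = 0.0392). With 1 library left out, the first of these calls held in 1 and the second in 2 of 12 fits. The sources used here do not say how reads of near-identical copies were assigned, so the split between close family members is uncertain.

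Ethylene is a gaseous stress hormone. Of 89 tested genes of its synthesis and response, 11 were higher and none lower at an unadjusted p below 0.05 (12.4% higher, beside 2.77% of all genes), with a median of 0.45. The count was 6 without JL drought 2, 7 without JL control 2 and 18 without JL drought 3. The median was 0.13 without JL drought 1, 0.29 without JL drought 2 and 0.71 and 0.74 without JL control 3 and JL drought 3. RAP2-7 (LOC8068364, chromosome 10, 1227876 to 1230833), an AP2-type repressor of flowering in Arabidopsis, had 0.1699, 0.167 and 0.337 CPM in the controls and 3.75, 2.995 and 6.96 CPM in drought. It was low in all libraries but the groups did not overlap, with a log2 fold change of 4.28 (SE 0.95, unadjusted p = 0.00095; DESeq2 adjusted p = 0.00474). An ETHYLENE INSENSITIVE 3-like 1 gene (LOC8078580), a master factor of ethylene signalling, had 4.16, 2.84 and 3.98 CPM against 8.91, 9.58 and 6.15 CPM, a change of 1.16 (SE 0.37). Its more abundant namesake LOC8083691 had 391, 468 and 560 CPM against 803, 460 and 575 CPM, with only JL drought 1 clear of the controls.

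Of 37 tested sugar transporters 4 were higher and none lower at the same threshold, with a median of 0.52 (10.8% higher, beside 2.77% of all genes). The median was 0.07 without JL drought 2, 0.10 without JL drought 1 and 0.23 without JL control 1. For 4 the drought libraries all lay above the controls (10.8%, beside 2.63% of all genes). The most abundant, SWEET13 (LOC8061260), which exports sucrose towards the phloem, had 1157, 1607 and 2370 CPM in the controls and 1041, 833 and 1854 CPM in drought. The sucrose loader SUT1 (LOC8082113) was one of the 4, though its levels of 893, 914 and 924 CPM and 1059, 927 and 1066 CPM nearly touched.

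Heat shock proteins and heat factors had medians below 0. Of 45 tested genes of the HSP70, HSP90, HSP101 and heat factor list, 3 were higher (6.67%, beside 2.77% of all genes) and 4 lower (8.89%, beside 0.939%), with a median of -0.23. Of 23 small heat shock proteins 1 was higher (4.35%) and 2 lower (8.70%), with a median of -0.69. Without JL control 3, the control with the most of these RNAs, that median was 0.59 and the larger list's -0.03. Without JL drought 1 the small proteins' median was -1.64, and the 4 lower genes of the larger list became 0 without JL control 2, 2 without JL drought 1 or 2 and 9 without JL drought 3. Heat shock protein 81-1 (LOC8055207), a cytosolic HSP90, had 1130, 1689 and 1848 CPM in the controls and 867, 454 and 1387 CPM in drought. Heat factor A-6a (LOC8061989) had 3.91, 6.67 and 2.16 CPM against 1.25, 1.11 and 1.68 CPM, below every control, at a log2 fold change of -1.65 (SE 0.49). Heat factor C-2b (LOC8061953) went the other way, with 4.84, 1.42 and 6.07 CPM against 27.3, 122 and 5.12 CPM and a change of 3.64 (SE 0.95; DESeq2 adjusted p = 0.0179).

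The photosynthetic genes, the most abundant RNAs in these leaves, gave few genes past the unadjusted threshold. With 2.77% of all genes higher and 0.939% lower, lists of this size would hold few in any case. Of 40 tested photosystem and light-harvesting genes none was below an unadjusted p of 0.05 in either direction, and the median log2 fold change was 0.01, or -0.10 with upper-quartile scaling. Of 41 C4 and Calvin cycle genes 1 was higher and 1 lower (2.44% each), with a median of -0.02. Of 26 chlorophyll synthesis genes none was in either direction, with a median of 0.04. The libraries within a group differed more: photosystem genes summed to 180539, 180347 and 67119 CPM in the controls and 135824, 211609 and 88920 CPM in drought. JL control 3 and JL drought 3 were the low libraries of their groups.

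Phosphoenolpyruvate carboxylase 3 (LOC8058886), which fixes carbon first in the mesophyll, was the most abundant gene of known product, at 61236, 59584 and 36907 CPM in the controls and 43509, 62112 and 45868 CPM in drought. Pyruvate, phosphate dikinase 1 (LOC110430571), which renews its substrate, had 46695, 49605 and 40250 CPM against 34995, 33173 and 48087 CPM. NADP-malic enzyme (LOC8078737), which releases the carbon dioxide in the bundle sheath, had 12796, 10507 and 10660 CPM against 7316, 11883 and 11062 CPM. Chlorophyll a-b binding protein 5 (LOC8062994) had 16213, 16451 and 6196 CPM against 13508, 22243 and 9220 CPM. The groups overlapped for all 4 genes.

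Plastid ribosomal proteins summed to 8062, 5235 and 3564 CPM in the controls and 5016, 14806 and 4204 CPM in drought. None of 42 tested genes was below an unadjusted p of 0.05 in either direction, with a median of 0.52, which was -0.31 without JL drought 2. JL drought 2 alone stood above the controls, by a median log2 ratio of 1.56 to their mean, where JL drought 1 had -0.12 and JL drought 3 -0.39. Of 189 tested cytosolic ribosomal proteins 2 were higher (1.06%, beside 2.77% of all genes) and none lower, with a median of -0.14.

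**Figure D3:**
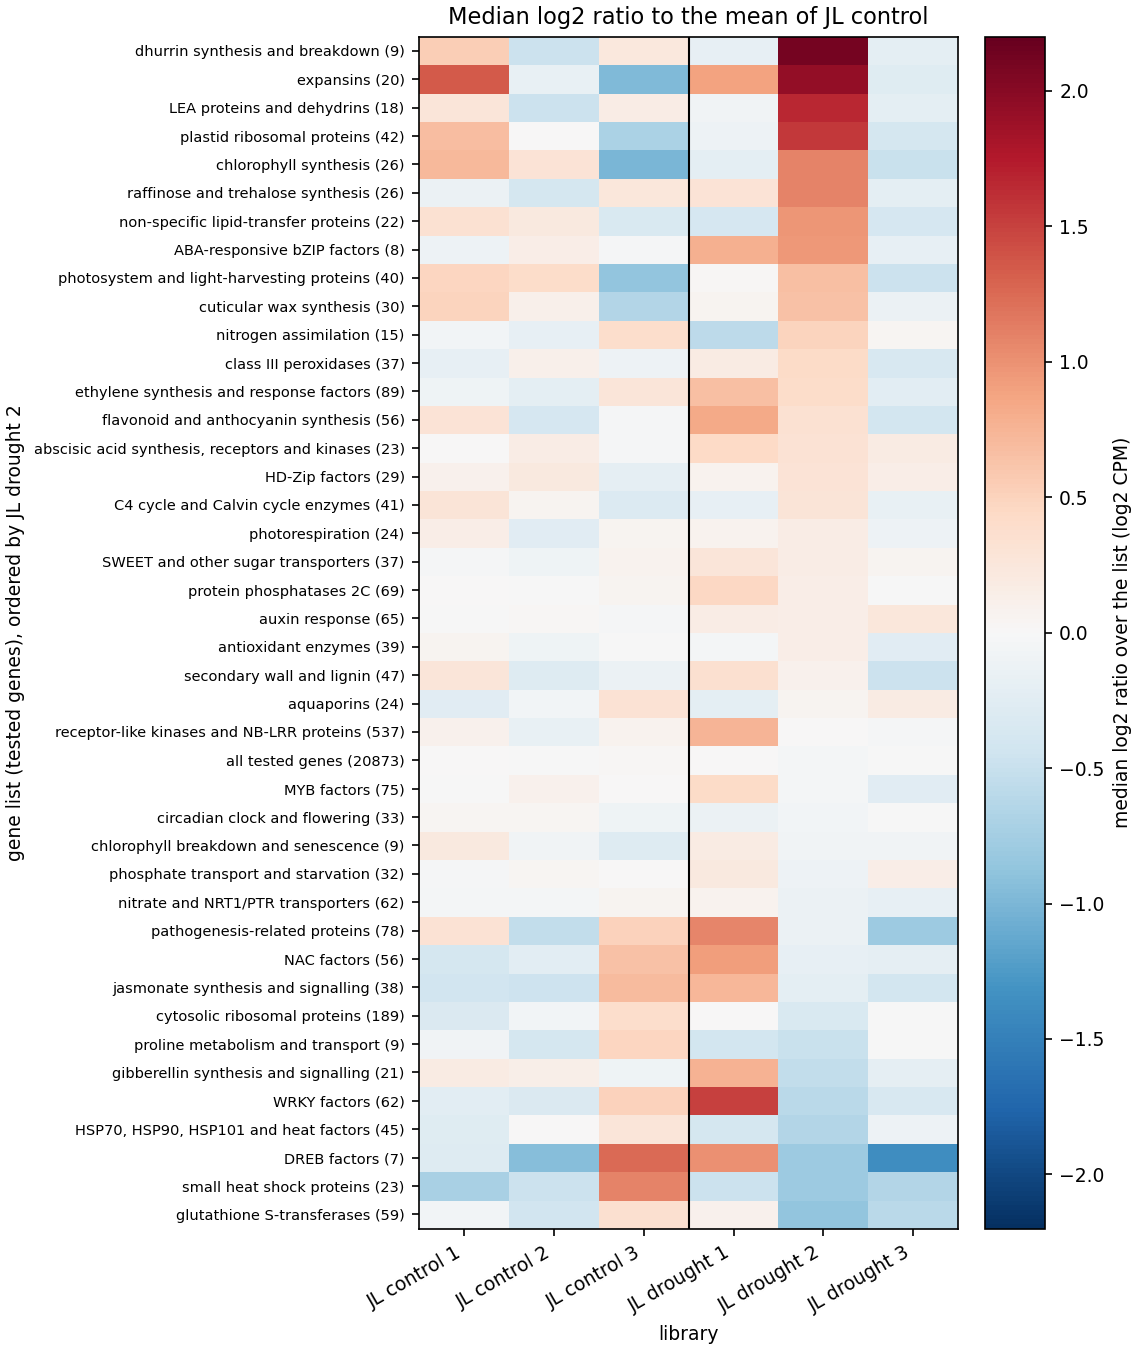
Rows are gene lists with their number of tested genes, columns are the 6 JL libraries, and colour gives the median log2 ratio of the list's genes to their mean in JL control (red higher, blue lower). WRKY factors stand out in JL drought 1 (1.51), dhurrin genes (2.11), expansins (1.94), LEA proteins (1.66) and plastid ribosomal proteins (1.56) in JL drought 2, and the highest median plotted for JL drought 3 is 0.25 (auxin response); marker lists are not plotted.

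The 3 drought libraries differed from the controls in largely different genes. With a level of at least 10 CPM and at least 4 times the highest control, 492 genes stood out in JL drought 1, 470 in JL drought 2 and 8 in JL drought 3. JL drought 1 and 2 shared 29 of these, 5.89% of the first set (beside 2.25% of all genes) and 6.17% of the second (beside 2.36%). In all 3 sets was 1 gene. At 4 times or more below the lowest control, with at least 10 CPM in each control, were 36, 216 and 31 genes. For scale, genes at 4 times or more of each of the other 5 JL libraries numbered 21, 3 and 49 in the controls and 416, 373 and 3 in drought.

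WRKY factors are plant transcription factors named after a peptide motif and known for immune responses. Of 62 tested WRKY genes 15 stood at least 4 times above the highest control in JL drought 1 (24.2%, beside 2.36% of all tested genes), and none in the other 2 drought libraries. Their summed level was 548, 558 and 977 CPM in the controls and 2425, 547 and 840 CPM in drought. WRKY76 (LOC8060252) had 31.3, 19.4 and 22.9 CPM against 315, 64.2 and 113 CPM, with all drought libraries above the controls, and WRKY50 (LOC8061067) 7.56, 4.004 and 8.501 CPM against 105, 5.05 and 4.54 CPM, with JL drought 1 alone above them. By the edgeR test over the 3 libraries, 1 WRKY gene was higher at an unadjusted p below 0.05 and none lower. That is 1.61% higher, beside 2.77% of all genes.

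NAC factors, a family with stress and senescence members, summed to 1744, 1981 and 2573 CPM in the controls and 3849, 1672 and 2049 CPM in drought. Receptor-like kinases and NB-LRR proteins, which sense microbes and cell wall signals, had 33 of 537 tested genes at 4 times or more in JL drought 1 (6.15%, beside 2.36% of all genes), 17 in JL drought 2 (3.17%, beside 2.25%) and none in JL drought 3 (0.0383% of all genes). Over the 3 libraries 31 were higher and 3 lower at an unadjusted p below 0.05, 5.77% higher beside 2.77% of all genes. The median of 0.41 was -0.09 without JL drought 1, and the 31 became 9 without JL control 2, 61 without JL drought 3 and 20 without JL drought 2 or JL control 3. Pathogenesis-related proteins summed to 1135, 1019 and 2149 CPM in the controls and 2600, 825 and 905 CPM in drought. Pathogenesis-related protein 1 (LOC8081108) shows how uneven they were, at 24.3, 9.84 and 563 CPM in the controls and 237, 0.171 and 1.54 CPM in drought.

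The genes of at least 50 CPM in JL drought that varied most among its libraries were all highest in JL drought 1. An isoprenylated heavy metal-associated protein (LOC8058677) had 7.73, 17.2 and 18.2 CPM in the controls and 450, 0.0856 and 1.903 CPM in drought. An ACC oxidase (LOC8075978), the last enzyme of ethylene synthesis, had 0.764, 6.42 and 6.88 CPM against 306, 0.941 and 0 CPM. Cytochrome P450 72A14 (LOC8084866) had 7.64, 9.09 and 78.5 CPM against 391, 0 and 0.512 CPM. Crocetin glucosyltransferase 2 (LOC8067747), FAD-dependent urate hydroxylase (LOC8068900) and leucine-rich repeat protein 1 (LOC8055029) followed the same order, at 238, 228 and 174 CPM in JL drought 1 and under 1 CPM in the other drought libraries.

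Other families had such genes in JL drought 2. Expansins, which loosen growing cell walls, had 7 of 20 tested genes at 4 times or more of the highest control there (35.0%, beside 2.25% of all genes) and none in the other drought libraries. They summed to 157, 84.9 and 57.2 CPM in the controls and 104, 924 and 53.1 CPM in drought. Expansin-B3 (LOC8058096) had 32.4, 7.84 and 0.877 CPM against 19.9, 456 and 7.83 CPM. Protein phosphatases 2C had 7 such genes of 69 (10.1%), LEA proteins and dehydrins 5 of 18 (27.8%) and non-specific lipid-transfer proteins 5 of 22 (22.7%).

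Dhurrin is the cyanogenic glucoside of sorghum, and its synthesis and breakdown genes summed to 482, 238 and 430 CPM in the controls and 527, 2534 and 433 CPM in drought. Tyrosine N-monooxygenase (LOC8061413), the first enzyme of the path, had 43.6, 10.6 and 6.004 CPM against 7.74, 775 and 1.83 CPM, so that 1 drought library carried nearly all of it. None of 9 tested dhurrin genes was below an unadjusted p of 0.05 in either direction, and their median of 1.41 was -0.21 without JL drought 2. Seed storage and oil body markers were highest in the same library, with a sum of 5.27, 2.59 and 2.36 CPM in the controls and 13.1, 29.2 and 3.95 CPM in drought. In JL drought 1 and 2 most of that was oleosin 1 (LOC8059544), at 4.16, 1.33 and 0.5397 CPM and 11.96, 28.3 and 0.878 CPM, and 32 of the 38 markers had no count in JL. Guard cell markers were low in JL drought 2, at 31.1 CPM beside 79.9 to 104 CPM in the other 5 libraries. The part of these marker levels in the results above was not tested.

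JL control 3 also differed from its group. Jasmonate synthesis and signalling genes summed to 1524, 2412 and 8773 CPM in the controls and 3107, 2301 and 2196 CPM in drought. Lipoxygenase 2.3-like (LOC110434540), an entry enzyme of jasmonate synthesis, had 521, 1148 and 3602 CPM against 429, 607 and 1106 CPM. One jasmonate gene of 38 was higher at an unadjusted p below 0.05 (2.63%, beside 2.77% of all genes) and none lower.

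Whether JL leaves shared the SCS response was read from the genes called in SCS, whose libraries are not JL libraries. All 12 libraries shared 1 estimate of each gene's spread, however, so p-values in JL are not independent of the SCS calls. A gene of small spread can be called in SCS and also have a smaller p in JL. The 854 genes that rose in SCS (4.09% of those tested) had a median log2 fold change of 0.23 in JL beside 0.04 over all genes, and 68.1% of them had an estimate above 0. At an unadjusted p below 0.05 in JL, 90 of them were higher (10.5%, beside 2.77% of all genes) and 10 lower (1.17%, beside 0.939%). The 1130 genes that fell in SCS (5.41%) had a median of -0.11 in JL. Of these, 9 were higher (0.80%, beside 2.77% of all genes) and 19 lower (1.68%, beside 0.939%). Across the 20873 genes, the JL and SCS log2 fold changes had a Pearson correlation of 0.22 and a Spearman correlation of 0.12, given as a description, since genes are not independent replicates and all libraries entered 1 fit.

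The libraries contributed unequally to this. The median log2 ratio of the 854 genes to their JL control mean was 0.59 in JL drought 2, 0.04 in JL drought 1 and -0.09 in JL drought 3, and -0.04 to 0.09 in the controls. Of the 470 genes that stood out in JL drought 2, 58 had risen in SCS (12.3%, beside 4.09% of all genes). The same held for 9 of 492 in JL drought 1 (1.83%) and 1 of 8 in JL drought 3 (12.5%). Of the 216 genes at 4 times or more below the lowest control in JL drought 2, 33 had fallen in SCS (beside 5.41% of all genes). So had 6 of 36 in JL drought 1 and 2 of 31 in JL drought 3. The 1130 genes that fell in SCS had a median ratio of -0.33 in JL drought 2, -0.18 in JL drought 1, 0.08 in JL drought 3 and -0.27 in JL control 3.

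**Figure D4:**
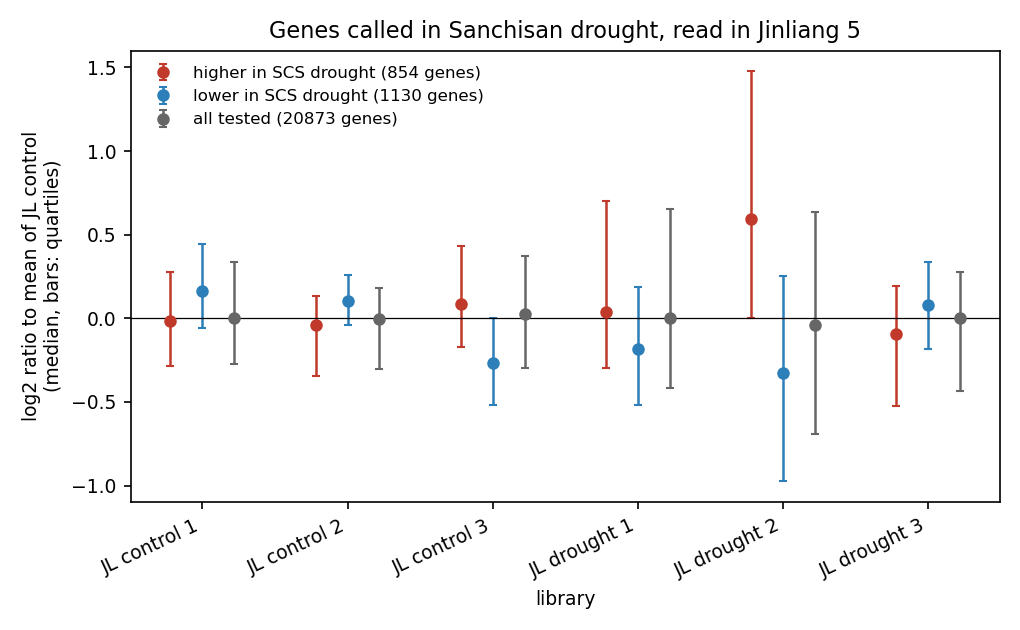
Points give the median, and bars the quartiles, of the log2 ratio of each JL library to the mean of JL control, for genes that rose (red) or fell (blue) in SCS drought and for all tested genes (grey). The 854 genes higher in SCS drought sit at 0.59 in JL drought 2 and between -0.09 and 0.09 in the other 5 libraries.

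The changes of the cultivars were then compared gene by gene with the interaction contrast. It called 107 genes (0.513%) by edgeR at an adjusted p below 0.05, with the JL change above the SCS change for 68 and below it for 39. Every one of the 107 was also called in SCS and had the larger estimate there, and 10 had an unadjusted p below 0.05 in JL. The JL and SCS estimates had opposite signs for 63. The count depended on each library. Leaving out JL control 1, 2 or 3 gave 23, 17 or 8 genes, and leaving out JL drought 1, 2 or 3 gave 31, 224 or 10. Of the SCS libraries, leaving out control 1, 2 or 3 gave 9, 15 or 8, and leaving out drought 1, 2 or 3 gave 16, 36 or 424. For 16 genes of this contrast the call was followed through these fits. R40C1, RADIALIS-like 3 (LOC8064723) and an NPF8.1-like carrier (LOC110433327) were called in all 12 of them, and LEA protein 1 (LOC8055903) in 10.

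LEA protein 1 (LOC8055903) had 0.5096, 0.917 and 2.02 CPM in JL control and 0.469, 0.342 and 0 CPM in JL drought, and rose by 8.12 in SCS (edgeR adjusted p = 0.00267). The low-temperature-induced 65 kDa protein (LOC8065192), an ABA-inducible gene in Arabidopsis, had 0.255, 0.334 and 0 CPM against 1.17, 0.428 and 0 CPM in JL, while SCS drought held 907 ± 599 CPM (SD, n = 3). The barley-type ABA-inducible protein PHV A1 (LOC8059830) had 0.679, 0 and 0.8096 CPM against 0.313, 0 and 0 CPM in JL and 1663 ± 832 CPM in SCS drought. All 3 were at or under 2.02 CPM in every JL library. The interaction call of the 65 kDa protein held in 1 of the 12 fits that left out 1 library, and that of PHV A1 in 3.

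In the other direction, senescence-specific cysteine protease SAG39 (LOC8086230) had 549, 652 and 298 CPM in JL control and 975, 180 and 207 CPM in JL drought, with overlapping groups, and fell by 8.14 on the log2 scale in SCS (edgeR adjusted p = 0.00465). Its interaction call held in 2 of the 12 fits that left out 1 library. RADIALIS-like 3 (LOC8064723), a MYB-type factor, had 165, 184 and 144 CPM against 138, 60.8 and 187 CPM in JL and fell by 7.59 in SCS (edgeR adjusted p = 0.00139). Proline transporter 1 (LOC8078705) had 159, 184 and 115 CPM against 88.9, 57.7 and 153 CPM in JL and fell by 5.78 in SCS (edgeR adjusted p = 0.00321). It was not among the genes followed through the fits with 1 library left out.

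**Figure D5:**
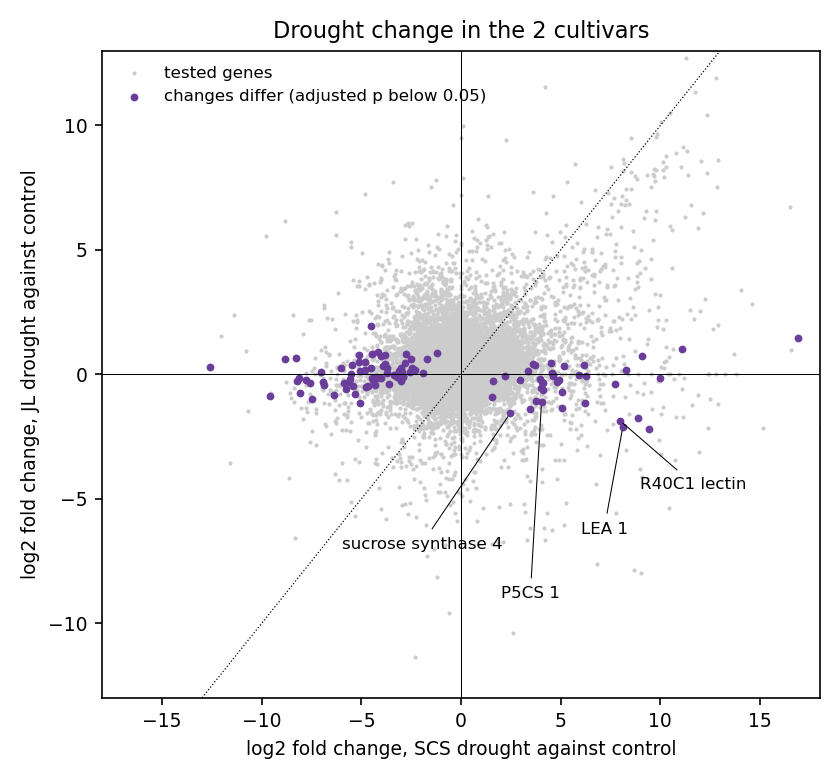
Each point is a tested gene, with the log2 fold change under drought in SCS on the x axis and in JL on the y axis; the dotted line marks equal change and purple points are the 107 genes whose changes differ. Every purple point lies farther from 0 on the SCS axis than on the JL axis, and for 63 of them the JL and SCS estimates have opposite signs.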

How the data were processed

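Leaf RNA of 2 sorghum cultivars was sequenced as strand-specific Illumina libraries, per the labels' protocols. HISAT2 2.0.4, StringTie 1.3.3b and STAR were used, per the submitters' processing notes. The genome build, the counter and whether it used strand were not given in the sources used here. If strand was not used, reads of a gene and its antisense partner cannot be told apart. The authors deposited whole-number counts per gene, which were tested, and FPKM values, used for 1 alternative as log2(FPKM + 0.1). Coordinates are those of the deposited table; 32939 of its 33897 genes had the same start and end in RefSeq's Sorghum_bicolor_NCBIv3 gene table.

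Genes were kept with filterByExpr (20873 kept, 13024 removed), counts were scaled with TMM (0.757 to 0.925 in JL), and edgeR 4.0.16 (R 4.3.3) fitted 1 mean per group over all 12 libraries with the quasi-likelihood F test, with Benjamini-Hochberg adjustment over all tested genes and a threshold of 0.05. The coefficient of variation was 63.3%. The test was also run on simulated counts drawn independently for each gene. That run cannot show how the test behaves where many genes move together in 1 library. CPM are TMM-scaled. Ratios per library use log2 CPM with a prior count of 2. Alternatives were RLE and upper-quartile scaling, no filter, a stricter filter, JL alone, a replicate block, DESeq2 1.42.0, limma 3.58.1 (voom with quality weights, and FPKM) and leaving out each library. Libraries of a JL group differed beyond counting noise (mean chi-square of 42.9 to 254 per gene), and each was entered as 1 library. This does not show that they came from separate plants.

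The members and the 48 gene lists, which are search patterns on product descriptions, were chosen with earlier results of these data known. In all, 17 lists were corrected for false matches once the product descriptions were seen. Named genes were the 12 higher and 12 lower with the smallest p among those of known product, at least 10 CPM and no overlap of libraries; up to 8 each way called by DESeq2; the 2 most abundant and the 2 of smallest p of each list described; 6 each way of the interaction; the 10 most abundant; and the 6 most variable in JL drought. Some of these are counted only. Dehydrin DHN1, the ion channel and the proline genes of the interaction were named after their values were seen.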

Additional observations from a re-analysis of the deposited data

Results flagged for a closer look

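The cultivars' drought changes differed by a test of the difference itself (edgeR interaction contrast, adjusted p below 0.05) for 107 genes. Below are the 6 of known product with the lowest and the 6 with the highest difference, the JL change minus the SCS change on the log2 scale. All 12 were called in SCS and are given here as values.

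Of the genes with a JL change below the SCS change, the low-temperature-induced 65 kDa protein (LOC8065192) differed by -15.42 (SE 2.54) and ABA-inducible PHV A1 (LOC8059830) by -11.64 (SE 1.78). Glycine-rich cell wall structural protein 2 (LOC8077859) differed by -10.62, with 0.934, 28.03 and 12.3 CPM in JL control and 1.72, 7.44 and 3.15 CPM in JL drought. LEA protein 1 (LOC8055903) differed by -10.22 (SE 1.14). A non-specific lipid-transfer protein 2 (LOC8061116) differed by -10.15, at 0.679, 0.834 and 2.09 CPM and 0.313, 2.31 and 0.659 CPM in JL. An NADP-dependent malic enzyme (LOC8075558) differed by -10.1, at 0.595, 0 and 0.135 CPM and 0.0781, 1.198 and 0.2196 CPM in JL, so that these 6 genes, the wall protein apart, were at or under 2.31 CPM in every JL library. Fitted values of genes this low depend on the prior count.

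Of the genes with a JL change above the SCS change, an NAD(P)H-dependent oxidoreductase 1 (LOC8083891) differed by 9.42, with 121, 51.4 and 21.2 CPM in JL control and 62.6, 39.4 and 192 CPM in JL drought. An NPF8.1-like carrier (LOC110433327) differed by 8.69 (SE 1.002), with 35.2, 57.9 and 76.98 CPM against 18.2, 19.6 and 53.9 CPM. SAG39 (LOC8086230) differed by 8.0 and RADIALIS-like 3 (LOC8064723) by 7.23. The aspartic proteinase nepenthesin-1 (LOC8074284) differed by 7.97, with 154, 136 and 220 CPM against 190, 29.7 and 206 CPM, and an acetylajmalan esterase-like gene (LOC110431387) by 7.14, with 242, 283 and 166 CPM against 154, 194 and 391 CPM. For all 6 the JL groups overlapped, and 10 of the 12 calls were lost in at least 2 of the 12 fits that left out 1 library. The call of LEA protein 1 was lost in 2 fits and that of the lipid-transfer protein in 5. The rest of these 10 calls were lost in 9 to 11 fits each.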

How the results depend on the processing

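The 36 named genes with a JL fold change kept its direction in all 576 values under the alternatives, and 9 of them were called by DESeq2 alone. Many of these genes were chosen from the same data for libraries that did not overlap, a small p or a DESeq2 call. Their direction could hardly change, so its stability is no test of the changes. The count of 0 called genes in JL was also 0 with RLE or upper-quartile scaling, no filter, a stricter filter, JL alone, either replicate block and FPKM, and it was 44 with DESeq2, 1 with voom and 0 to 2 with 1 JL library left out. The 579 genes higher at an unadjusted p below 0.05 became 234 with JL alone, 880 with DESeq2, 958 with voom, 254 with FPKM and 260 to 1416 with 1 JL library left out. The 196 lower became 128, 317, 419, 281 and 174 to 622 in the same order, and 164 without SCS control 1; 281 is within 1.5 times of 196. The 107 genes of the interaction became 1357 with DESeq2, 1912 with voom, 257 with FPKM and 8 to 424 with 1 library left out. The cause of these shifts was not tested. The labels state no pairing by replicate number, and deviations of same-numbered JL libraries correlated at -0.18, 0.11 and 0.06. With 3 libraries a group, these values cannot decide whether the samples were paired. With the replicate block, 136 genes were higher and 131 lower in JL alone, 234 and 139 in the fit of all libraries, and the interaction called 0 genes, so that each of the 16 named interaction calls was lost with that block. Of 432 list medians under other scalings and with libraries left out, 56 moved by more than the spread between drought libraries.

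The groups had 3 libraries each and a median approximate standard error of 0.53. The spread was larger in JL drought than in JL control. With these limits, a low count of calls does not show that JL leaves did not respond. Levels of a few CPM rest on few reads.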
